A study of Mus musculus with 24 samples.

Results

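Lactose synthesis and glucose entry genes of the mouse mammary gland were followed through lactation in 10 transcripts. They were chosen by symbol, and all 10 were found among the 32544 gene symbols measured. They are Slc2a1, Slc5a1, Slc2a8 and Slc2a12, which encode hexose transporters, Hk1 and Hk2, which encode hexokinases, Pgm1 (phosphoglucomutase), Ugp2 (UDP-glucose pyrophosphorylase), Slc35a2 (the UDP-galactose carrier of the Golgi) and B4galt1 (beta-1,4-galactosyltransferase). All 10 stood above 1 CPM, counts per 1000000, in each of the 24 samples once milk protein genes were set aside, so that no member was lost to the filter on low values.

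Lactose, the main sugar and osmolyte of milk, is made in the Golgi of secretory epithelial cells from glucose and UDP-galactose. Glucose enters the cell through facilitative transporters such as GLUT1 (Slc2a1), is phosphorylated by hexokinase, and is turned into UDP-glucose by phosphoglucomutase and UDP-glucose pyrophosphorylase and then into UDP-galactose. SLC35A2 carries UDP-galactose into the Golgi, where B4GALT1 joined to alpha-lactalbumin (Lalba) forms lactose synthase.

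Polyadenylated RNA was sequenced from inguinal mammary glands of mice labelled BL/6 C57 or BL/6 NZB. In mice made by mitochondrial-nuclear exchange such names give the nuclear strain and then the source of the mitochondrial genome, which the labels themselves do not spell out. Glands were taken without lactation or on lactation days 8, 14 and 21, from 3 mice in each of 8 groups. All groups carry BL/6 in their genotype, and each of the 6 lactating groups was compared with the non-lactating group of its genotype or with the other genotype at the same stage. The labels give no age of the mice, no litter size and no treatment.

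In units of 1000000 reads assigned to genes, the depth was 7.03 to 24.3. The genotype tag of C57 non-lactating mouse 3 reads NZB whereas its title reads C57, and it was kept as C57. C57 non-lactating mouse 2 had 2.17 and 11.9 of these units in its pair of columns, whose mean was used. Milk protein genes held 70.8% to 74.3% of all counts on average in C57 on the lactation days and in NZB on days 8 and 14, but 24.9% ± 6.19 (SD, n = 3) in NZB on day 21, 0.505% in C57 non-lactating and 1.503% in NZB non-lactating glands. Levels are therefore given in CPM without the 20 milk protein genes, rescaled to the same total (non-milk CPM), and differences are log2(non-milk CPM + 1) with the limma standard error (SE). Values on the deposited scale, with the milk genes kept, are given where they change a direction or a call. NZB non-lactating mice 2 and 3 stood apart by summed B and T lymphocyte markers of 359 and 1016 non-milk CPM, against 8.35 to 102 in the other 22 mice. Summed markers of luminal secretory epithelium were 54.5 to 318 non-milk CPM in NZB non-lactating glands and 580 to 1255 in C57 non-lactating glands. In every group each of its 7 markers reached 0.1 CPM in some mouse.

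The promoters of B4galt1, Slc2a1 and Slc5a1, the members with the largest rises on day 8, are shown because these 3 genes rose together in both genotypes. RefSeq promoter sequences (GRCm38.p6) were found for all 10 members. The sequences below are 5' to 3' on the coding strand and lie upstream of the start in both RefSeq and GENCODE. They are B4galt1 chr4:40854006-40854234 (minus strand), Slc2a1 chr4:119108495-119108710 (plus strand) and Slc5a1 chr5:33103969-33104218 (plus strand). Capitals mark TTCNNNGAA, the form bound by STAT5, and GGGCGG, the GC box, each searched on both strands. No match of one overlapped a match of the other.
B4galt1: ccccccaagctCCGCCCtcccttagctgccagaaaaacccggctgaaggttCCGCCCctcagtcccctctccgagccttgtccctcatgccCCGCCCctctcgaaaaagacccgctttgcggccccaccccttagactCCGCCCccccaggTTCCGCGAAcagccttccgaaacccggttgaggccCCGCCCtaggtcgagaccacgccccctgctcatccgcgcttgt
Slc2a1: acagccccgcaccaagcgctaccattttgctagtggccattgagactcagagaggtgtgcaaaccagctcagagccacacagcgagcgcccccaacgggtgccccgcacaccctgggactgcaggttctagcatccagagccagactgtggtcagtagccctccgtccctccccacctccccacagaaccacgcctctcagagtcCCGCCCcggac
Slc5a1: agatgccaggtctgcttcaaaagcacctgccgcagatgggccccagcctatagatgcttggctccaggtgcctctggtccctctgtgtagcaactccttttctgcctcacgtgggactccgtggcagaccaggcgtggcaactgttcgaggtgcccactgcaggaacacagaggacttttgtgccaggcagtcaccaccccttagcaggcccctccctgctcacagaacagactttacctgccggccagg
The B4galt1 stretch held 1 TTCNNNGAA and 5 GGGCGG matches, that of Slc2a1 held 0 and 1, and that of Slc5a1 held none of either. Of 32536 promoter windows of 250 bases upstream of a start, 7.04% held TTCNNNGAA and 33.0% held GGGCGG. The stretches shown are shorter than these windows for B4galt1 (229 bases) and Slc2a1 (216 bases), and 250 bases long for Slc5a1. The full 250-base window of Slc2a1 held 2 GGGCGG matches. The TATA box (TATAAA) was in none of the 3 stretches and in 12.3% of the windows. A match is a description of these letters and not a test of binding.

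B4galt1 lies on chromosome 4 from 40804602 to 40854005 (GRCm38, GENCODE release M21), Slc2a1 on chromosome 4 from 119108711 to 119137983, Slc5a1 on chromosome 5 from 33104219 to 33162870, Slc35a2 on the X chromosome from 7884028 to 7894492, Hk2 on chromosome 6 from 82725025 to 82774454 and Ugp2 on chromosome 11 from 21321138 to 21371201. The measured values are whole-gene values, so no exon, intron or untranslated region can be told apart. The table uses older symbols for many genes, and RefSeq lists Pgm1 and Pgm2 as former names of each other. Which of these genes the row named Pgm1 holds is therefore uncertain, and the row named Pgm2 is given beside it. All counts of members use the row named Pgm1 and depend on that choice. On day 8 the row named Pgm2 was called lower in both genotypes. In C57 it was also called lower than in non-lactating glands on day 14 (log2 -1.88) and day 21 (-1.76). Counts of 0 lower members in these comparisons therefore hold only with the row named Pgm1.

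Per kilobase of exon sequence, B4galt1 was the most abundant of the 9 members with a certain gene length in all 8 groups. Its non-milk CPM per kb was 39.9 ± 12.2 (SD, n = 3) in C57 non-lactating glands and 794 ± 79.1 on day 8. Slc2a1 was the fourth of the 9 in C57 non-lactating glands, at 7.05 ± 2.51 non-milk CPM per kb, with overlap with Hk1 at 5.29 ± 1.19. It was the second on day 8 in both genotypes. In C57 it was at 55.0 ± 4.72 non-milk CPM per kb, above Ugp2 at 33.2 ± 5.34 with no overlap, whereas in NZB its 56.7 ± 2.88 overlapped Ugp2 at 55.1 ± 8.40. Slc5a1 was the ninth of the 9 in non-lactating glands of both genotypes, at 1.36 ± 1.05 non-milk CPM per kb in C57 and 0.293 ± 0.0526 in NZB. Its range there overlapped that of Slc2a12, the eighth, in C57 and not in NZB. Slc5a1 was the fourth on day 8 in both genotypes, where its range overlapped that of Hk2, the fifth, in C57 and not in NZB. In NZB on day 21 the order from the highest was B4galt1 (175 ± 22.3 non-milk CPM per kb), Ugp2 (62.8 ± 32.7), Slc2a1 (19.7 ± 3.63), Slc5a1 (11.4 ± 3.68), Hk1, Hk2, Slc2a8, Slc35a2 and Slc2a12. Neighbours from Slc5a1 to Slc2a8 overlapped in that order, as did Slc35a2 and Slc2a12.

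On day 8, B4galt1, Slc2a1, Slc5a1 and Slc35a2 rose in both genotypes, and Slc2a12, Ugp2 and Pgm1 rose in NZB. Hk1, Hk2 and Slc2a8 passed the test in neither genotype. In C57, 4 of the 10 members rose and 0 fell, where 12.8% of 16917 genes tested rose and 30.2% fell. In NZB, 7 of 10 rose and 0 fell, where 14.5% of genes rose and 31.3% fell. The median log2 difference was 0.50 over the members and -0.29 over all genes in C57, and 1.43 over the members and -0.29 over all genes in NZB. With the milk genes kept the median of all genes was -1.80 in both genotypes and 3 members rose in each, B4galt1, Slc2a1 and Slc5a1, whereas 6 members fell in C57 and 4 in NZB. The split over all genes was 2159 higher and 5116 lower in C57, or 350 and 14327 on the deposited scale, and 2458 and 5303 in NZB, or 481 and 14296.

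**Figure D1:**
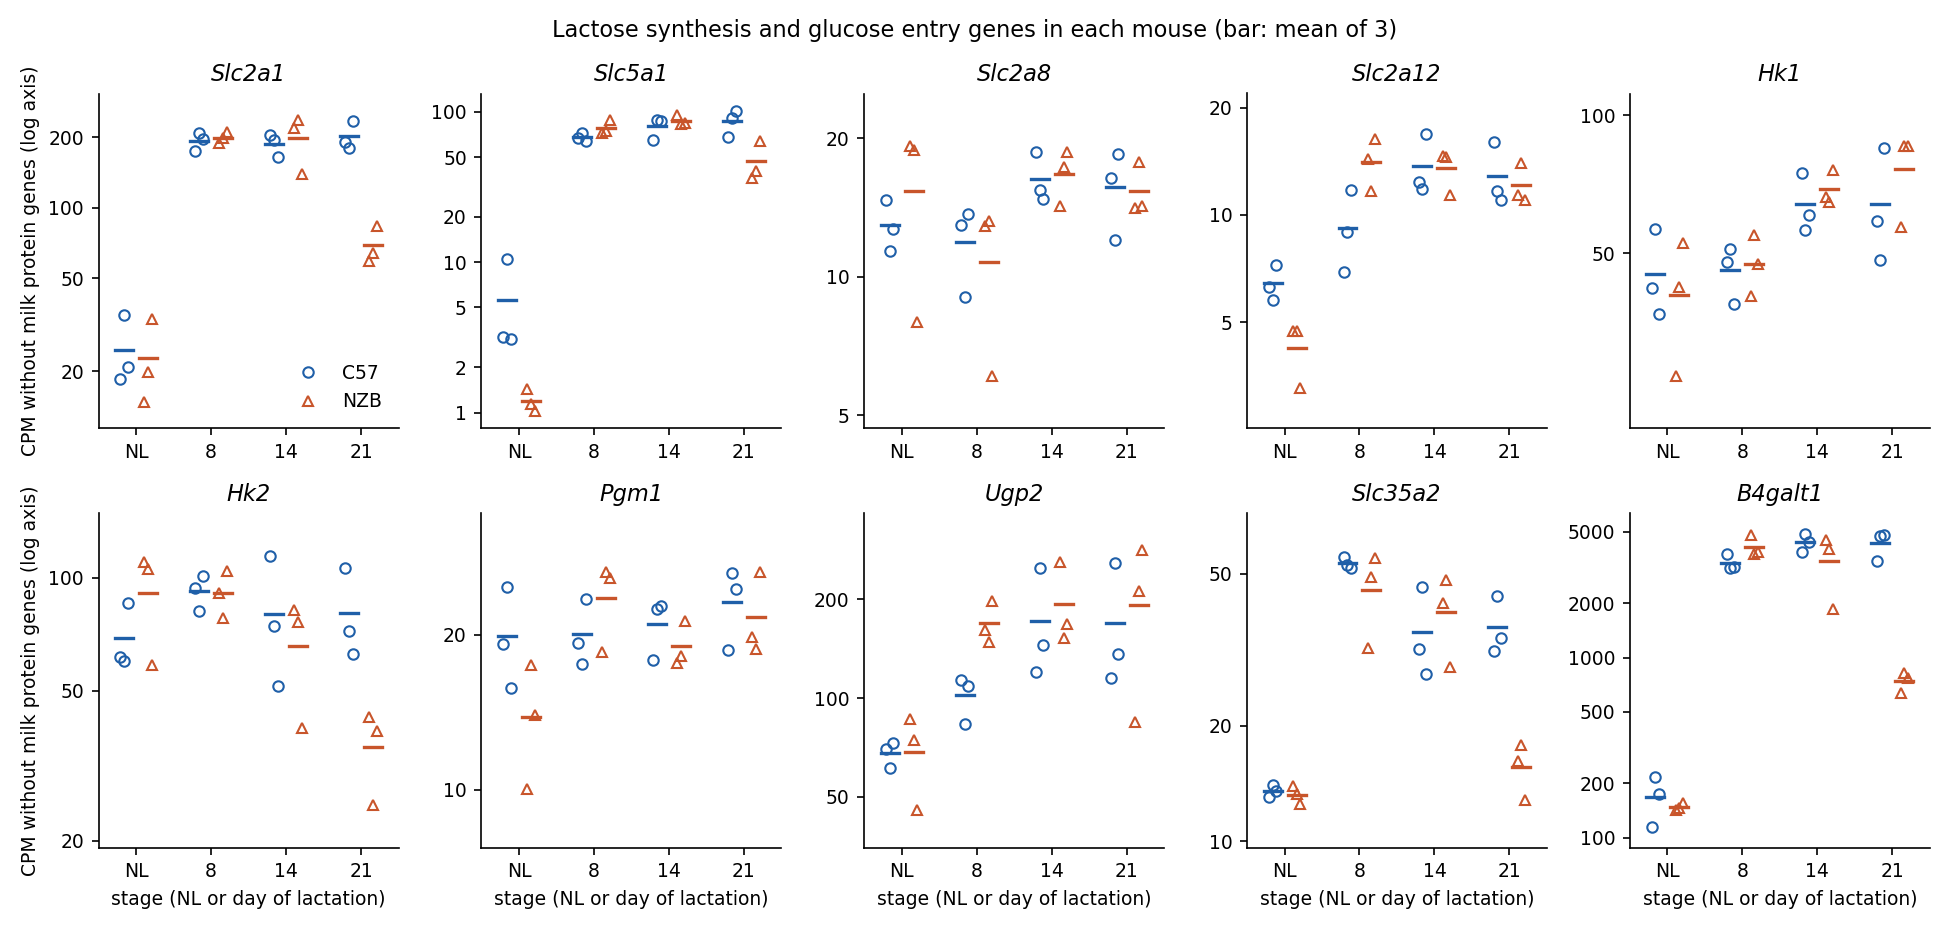
Non-milk CPM (log axis) of each member in each mouse against stage (NL, non-lactating, or day of lactation), with C57 as circles, NZB as triangles and the mean of 3 mice as a bar. B4galt1, Slc2a1, Slc5a1 and Slc35a2 are higher on day 8 than in non-lactating glands in both genotypes, and B4galt1 in NZB on day 21 sits at 636 to 817 against 3441 to 4807 in C57.

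Slc2a1 encodes GLUT1, the facilitative glucose transporter of the secretory cell. It stood at 18.5, 34.8 and 20.8 non-milk CPM in the 3 C57 non-lactating mice and at 175, 208 and 196 on day 8. The groups did not overlap, and the log2 difference was 2.96 (SE 0.25), a 7.80-fold rise with adjusted p = 3.9e-09. In NZB the values were 14.8, 19.9 and 33.3 non-milk CPM without lactation and 189.6, 198 and 209.6 on day 8, a log2 difference of 3.15 (SE 0.25, adjusted p = 1.3e-09). All 3 lactating mice exceeded all 3 non-lactating mice in each genotype.

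Slc5a1 encodes SGLT1, which takes up glucose and galactose with sodium. It stood at 3.18, 10.6 and 3.07 non-milk CPM in C57 non-lactating glands, with mouse 2 the highest, and at 67.4, 71.8 and 63.6 on day 8. This was an 11.8-fold rise (log2 3.56, SE 0.29, adjusted p = 2.1e-09). NZB non-lactating glands held less, with 1.44, 1.14 and 1.02 non-milk CPM, and reached 71.9, 74.2 and 87.8 on day 8. The log2 difference was 5.16 (SE 0.29, adjusted p = 3.7e-12), the largest of the 10 in NZB. The rise was larger in NZB than in C57 by 1.604 (SE 0.41), which did not pass the test of the difference between genotypes (adjusted p = 0.070). Without C57 non-lactating mouse 1 or mouse 3, or NZB non-lactating mouse 1, that difference passed, with adjusted p of 0.036, 0.031 and 0.029, and it passed with a pseudocount of 0.1 (adjusted p = 0.032). No other member passed that test either, where 0.668% of genes were called higher and 0.0414% lower. Unadjusted p was under 0.05 for 3 members, Slc5a1, Slc2a12 and Pgm1, and limma voom called 0.

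Slc2a12 encodes GLUT12 and Slc2a8 encodes GLUT8, which is mostly held inside the cell. Slc2a12 stood at 6.28, 5.77 and 7.25 non-milk CPM in C57 non-lactating glands and at 6.90, 8.92 and 11.7 on day 8, and these groups overlapped (log2 0.43, SE 0.23, adjusted p = 0.14), although limma voom called the gene (log2 0.76, adjusted p = 0.031) and the deposited scale gave -1.16. In NZB it stood at 4.71, 4.73 and 3.27 non-milk CPM and then at 14.3, 11.7 and 16.3, with no overlap and a log2 difference of 1.53 (SE 0.23, adjusted p = 1.3e-05). The NZB difference was -0.15 on the deposited scale and did not pass there. Slc2a8 ranged from 11.4 to 14.7 non-milk CPM in C57 non-lactating glands and from 9.02 to 13.7 on day 8, a log2 difference of -0.12 (SE 0.30). The NZB ranges of 7.98 to 19.3 and 6.09 to 13.2 also overlapped (log2 -0.45, SE 0.30, adjusted p = 0.22). Without NZB non-lactating mouse 3 the NZB difference was -0.84 with adjusted p = 0.017. Both Slc2a8 differences passed as lower on the deposited scale (-1.78 in C57 and -2.04 in NZB).

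Hk1 and Hk2 encode hexokinases that trap glucose as glucose 6-phosphate. Hk1 stood at 42.0, 56.4 and 36.9 non-milk CPM in C57 non-lactating glands and at 47.8, 51.2 and 38.7 on day 8. Hk2 stood at 61.5, 60.1 and 85.4 and then at 93.7, 81.4 and 101 in C57. In NZB, Hk2 stood at 110.0, 105 and 58.6 non-milk CPM and then at 90.9, 78.0 and 104. Both genes overlapped between the stages in both genotypes, with log2 differences from 0.04 to 0.43 and adjusted p from 0.28 to 0.93 on the non-milk scale. The same differences turned to -1.84 to -1.49 on the deposited scale, and all 4 passed there. Limma voom called Hk1 higher in NZB (log2 0.58, adjusted p = 0.031).

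Phosphoglucomutase and UDP-glucose pyrophosphorylase make UDP-glucose from glucose 6-phosphate. The row named Pgm1 stood at 19.2, 24.8 and 15.8 non-milk CPM in C57 non-lactating glands and at 19.3, 17.5 and 23.5 on day 8, with a log2 difference of 0.03 (SE 0.23) that was -1.74 on the deposited scale. In NZB it stood at 10.02, 17.5 and 14.0 and then at 18.5, 26.6 and 25.8, a log2 difference of 0.75 (SE 0.23, adjusted p = 0.0095), which turned to -1.02 on the deposited scale. Without NZB non-lactating mouse 1 the difference was 0.55 with adjusted p = 0.061, and with only the compared groups in the fit adjusted p was 0.072. The row named Pgm2 fell, from 119, 85.8 and 127 non-milk CPM to 25.6, 27.1 and 29.9 in C57 (log2 -1.95, SE 0.24, adjusted p = 7.2e-07). In NZB it fell by 2.11 (adjusted p = 2.5e-07). Ugp2 stood at 70.0, 61.2 and 72.9 non-milk CPM and then at 114, 83.2 and 109 in C57, groups that did not overlap but did not pass the test (log2 0.57, SE 0.36, adjusted p = 0.22). With only the compared groups in the fit it passed, with adjusted p = 0.014, and on the deposited scale it was -1.35. In NZB, Ugp2 stood at 86.1, 74.6 and 45.4 and then at 161, 148 and 198, a log2 difference of 1.33 (SE 0.36, adjusted p = 0.0046). Without the lymphocyte-rich NZB non-lactating mice 2 and 3, which left only mouse 1 in that group, the Ugp2 difference was 0.96. With all mice on the deposited scale it was -0.58.

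Slc35a2 was nearly the same in every non-lactating gland, at 13.02, 14.0 and 13.5 non-milk CPM in C57 and 13.9, 13.3 and 12.48 in NZB. On day 8 it stood at 55.4, 52.8 and 51.7 in C57 (log2 1.90, SE 0.22, adjusted p = 4.3e-07) and at 32.0, 49.1 and 55.0 in NZB (log2 1.67, SE 0.22, adjusted p = 2.6e-06). NZB day 8 mouse 1 was the lowest of the 6 lactating mice and still above all non-lactating mice. These differences were 0.02 in C57 and -0.17 in NZB on the deposited scale, where neither passed.

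B4galt1 encodes the catalytic subunit of lactose synthase. It stood at 114, 217 and 175 non-milk CPM in C57 non-lactating glands and at 3748, 3156 and 3181 on day 8, a 20.4-fold rise (log2 4.35, SE 0.27, adjusted p = 3.4e-11). In NZB it stood at 142, 145 and 156 and then at 4791, 3744 and 3866, a 27.6-fold rise (log2 4.79, SE 0.27, adjusted p = 5.0e-12). The stages did not overlap in either genotype. B4galt1 also rose on the deposited scale, by log2 2.40 in C57 and 2.86 in NZB.

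Lalba, the partner of B4GALT1 and a milk protein gene, is given on the deposited scale. It stood at 3.40, 7.36 and 3.93 CPM in C57 non-lactating glands and at 849.7, 687 and 573 on day 8 (log2 6.94, SE 0.26, adjusted p = 8.7e-15). NZB non-lactating glands held 34.0, 13.5 and 21.7 CPM, more than any C57 non-lactating gland, and 751, 826 and 853 on day 8 (log2 5.16, SE 0.26, adjusted p = 2.3e-12). The non-lactating difference was 1.996 (SE 0.40, adjusted p = 0.25). The NZB rise to day 8 less the C57 rise was -1.78 (SE 0.37, adjusted p = 0.024) by limma with the spread shared by all groups. For days 14 and 21 this was -1.98 and -2.83 (adjusted p = 0.011 and 4.1e-06). The ratio of Lalba to B4galt1, which does not depend on the scaling, was 0.0226 to 0.0341 in C57 and 0.094 to 0.244 in NZB without lactation, with no overlap. It was 0.749 to 0.894 in C57 and 0.623 to 0.892 in NZB on day 8.

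**Figure D2:**
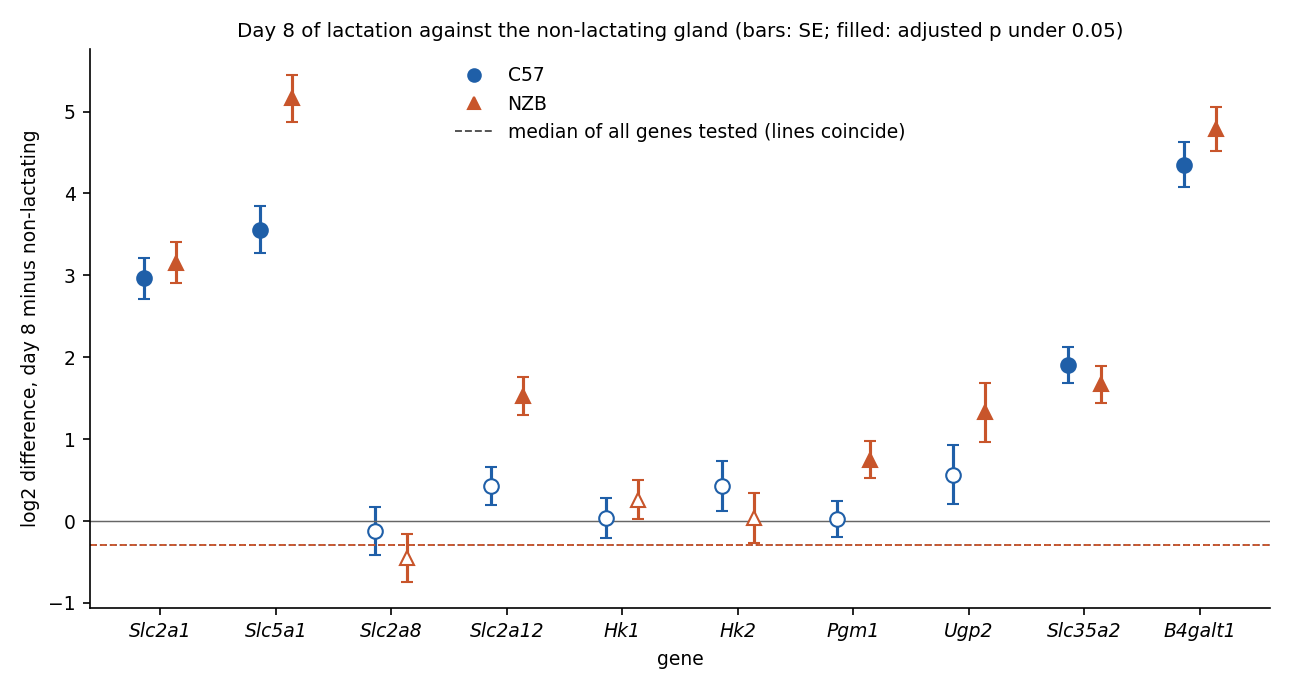
Log2 difference on the non-milk scale between day 8 and non-lactating glands for each member in C57 (circles) and NZB (triangles), with SE bars, filled where adjusted p was under 0.05, and the median of all genes as dashed lines near -0.29. B4galt1, Slc5a1, Slc2a1 and Slc35a2 lie above the others in both genotypes, and Slc5a1 is at 3.56 in C57 and 5.16 in NZB.

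The cell markers moved between these stages as well. The 9 white adipocyte markers all fell on day 8 in both genotypes, from a summed 5019 to 9396 non-milk CPM to 407 to 544 in C57. The 6 fibroblast markers all fell too, from 3917 to 7676 to 527 to 741 in C57. Of the 7 luminal secretory markers other than milk protein genes, 2 rose and 3 fell in C57 and 5 rose in NZB, with sums of 1471 to 1545 in C57 and 1777 to 1877 in NZB on day 8. Of the 7 myoepithelial markers 1 rose in C57 and 7 rose in NZB (median log2 0.19 and 2.48), and their sums went from 492 to 839 to 880 to 944 in C57 and from 93.7 to 271 to 774 to 974 in NZB. Of the 8 B and T lymphocyte markers 0 fell in C57 and 7 fell in NZB. In whole glands a change in the number of cells of a type and a change in RNA per cell cannot be told apart. The part of these markers in the changes of the 10 members was not tested.

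From day 8 to day 14, and in C57 from day 14 to day 21, no member passed the test in either genotype. In C57 limma called 0 of 10 between days 8 and 14, where 1.43% of genes were higher and 0.686% lower, with 2 members at an unadjusted p under 0.05 (Slc2a12 and Slc35a2), and 0 by limma voom. Between days 14 and 21 in C57, limma and limma voom each called 0 of 10 members, 0 members had an unadjusted p under 0.05, and limma called 0 of all genes in each direction. C57 mice 1 and 2 of day 14 resembled the mice of the same number of day 21, with correlations of their deviations from the group mean of 0.61 and 0.58, against 0.07 for mouse 3. In NZB 0 of 10 passed between days 8 and 14, where 0.219% of genes were higher and 0.248% lower, with 2 at an unadjusted p under 0.05 (Hk1 and Slc2a8), and 0 by limma voom.

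B4galt1 held 3838, 4881 and 4368 non-milk CPM on day 14 and 3441, 4732 and 4807 on day 21 in C57. Slc2a1 held 205, 193 and 164 and then 191, 179.5 and 234, and Slc5a1 held 65.3, 88.4 and 86.8 and then 68.0, 90.9 and 102. The C57 ranges of these 3 genes overlapped between days 14 and 21. Against non-lactating C57 glands 6 of 10 members were higher on day 14 and 6 on day 21, where 13.7% and 13.5% of genes were higher, and 0 were lower, where 23.7% and 24.7% of genes were lower. Beyond the 4 of day 8 these were Slc2a12 (log2 0.97 and 0.89) and Ugp2 (1.25 and 1.22), both of which were negative on the deposited scale (-0.59 and -0.66 for Slc2a12, -0.52 and -0.55 for Ugp2). Slc35a2, at log2 1.28 and 1.35, was -0.41 and -0.35 on that scale. On the deposited scale 3 members were higher and 5 lower on each of these days. The split over all genes was 2314 higher and 4013 lower on day 14, or 418 and 13920 on the deposited scale, and 2284 and 4186 on day 21, or 405 and 13960. Limma voom called 7, with Hk1 added on both days, and the share of all genes it called is not given. Ugp2 was the highest in mouse 2 on both days, at 249 on day 14 and 258 on day 21 against 116 to 145 in the other 4 C57 mice, and without mouse 2 its difference from non-lactating glands had adjusted p of 0.067 on day 14 and 0.085 on day 21.

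NZB mouse 3 of day 14 stood below both other NZB mice of that day in 5 members. Its B4galt1 was 1850 non-milk CPM against 4503 and 4005, its Slc2a1 139 against 218 and 236, its Slc35a2 28.6 against 42.0 and 48.2, its Hk2 39.8 against 81.9 and 76.1, and its Slc2a12 11.3 against 14.6 and 14.5. Its Slc5a1, at 83.6, lay between 94.9 and 83.1. The NZB glands of day 14 still had 7 of 10 members higher than non-lactating glands, where 15.2% of genes were higher, and 0 lower, where 29.6% were lower, with B4galt1 at log2 4.44 (SE 0.27) and Slc5a1 at 5.33 (SE 0.29). Hk1 was among the 7, at log2 0.80 (adjusted p = 0.00975), and turned to -0.98 on the deposited scale. The Hk1 call was lost without NZB non-lactating mouse 1 (adjusted p = 0.067), with only the compared groups in the fit (0.054) and with 8 milk genes left out (0.057). Ugp2 was also called (log2 1.49). Its difference was 1.12 without NZB non-lactating mice 2 and 3, which left only mouse 1 in that group. Slc2a12, Ugp2 and Slc35a2 turned to -0.12, -0.31 and -0.25 on the deposited scale, where 3 members were higher and 4 lower (Slc2a8, Hk1, Hk2 and Pgm1). The split over all genes was 2568 higher and 5003 lower, or 587 and 14125 on that scale.

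On day 21, B4galt1, Slc2a1, Slc35a2, Hk2 and Slc5a1 were lower in NZB than in C57 glands on the non-milk scale, whereas Slc2a8, Slc2a12, Hk1, Pgm1 and Ugp2 did not pass. These 5 of 10 compare with 5.65% of all genes lower and 18.4% higher in NZB. The median log2 difference was -0.50 over the members and 0.29 over all genes. With the milk genes kept the median of all genes was 1.35, only B4galt1 of the 10 was lower, and Slc2a8, Slc2a12, Hk1, Pgm1 and Ugp2 were called higher in NZB. The split over all genes was 3112 higher and 956 lower on the non-milk scale and 13752 and 162 on the deposited scale. Without NZB day 21 mouse 2, 3 members were lower (B4galt1, Slc2a1 and Slc35a2).

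B4galt1 stood at 636, 817 and 772 non-milk CPM in NZB on day 21 and at 3441, 4732 and 4807 in C57. The groups did not overlap, and the log2 difference was -2.53 (SE 0.27, adjusted p = 1.1e-06), a 5.79-fold lower level in NZB. With the milk genes kept the 3 NZB mice had 442, 669 and 572 CPM and the C57 mice 1308, 1125 and 1244, still without overlap (log2 -1.14, SE 0.25, adjusted p = 3.0e-04). B4galt1 is the member whose lower level in NZB was called on both scales.

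Slc2a1 stood at 59.4, 64.1 and 83.4 non-milk CPM in NZB on day 21 and at 191, 179.5 and 234 in C57, a log2 difference of -1.54 (SE 0.25, adjusted p = 1.4e-04). The difference was -0.16 (SE 0.28) on the deposited scale and did not pass. Slc35a2 stood at 16.2, 17.8 and 12.8 non-milk CPM against 31.5, 43.6 and 33.9, a log2 difference of -1.17 (SE 0.22, adjusted p = 7.0e-04), which was 0.16 and not called on the deposited scale. NZB day 21 mouse 3 lay within the non-lactating NZB range of 12.48 to 13.9. Neither gene overlapped between the genotypes on the non-milk scale.

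Hk2 stood at 42.7, 24.9 and 39.2 non-milk CPM in NZB and at 106, 72.2 and 62.5 in C57 (log2 -1.15, SE 0.30, adjusted p = 0.0084). It was 0.20 and not called on the deposited scale, and without NZB day 21 mouse 2 the non-milk difference was -0.92 with adjusted p = 0.058. Slc5a1 stood at 36.1, 40.2 and 64.0 in NZB and at 68.0, 90.9 and 102 in C57 (log2 -0.90, SE 0.29, adjusted p = 0.025). It was 0.46 and not called on the deposited scale. The Slc5a1 call was lost without C57 day 21 mouse 2 or 3 or NZB day 21 mouse 1 or 2, with adjusted p from 0.079 to 0.11, and with 8 in place of 20 milk genes left out (adjusted p = 0.051). Hk1, at 57.1, 85.7 and 85.8 non-milk CPM in NZB and 58.7, 48.4 and 84.9 in C57, differed by 0.26 (SE 0.24, adjusted p = 0.45). Ugp2 was 84.3, 212 and 282 in NZB, so that the mice spread more than the genotypes differed (log2 0.10, SE 0.36). The ratio of Hk2 to Hk1 was 0.748, 0.290 and 0.456 in NZB and 1.81, 1.49 and 0.736 in C57 on day 21, and NZB mouse 1 and C57 mouse 3 overlapped in it.

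**Figure D3:**
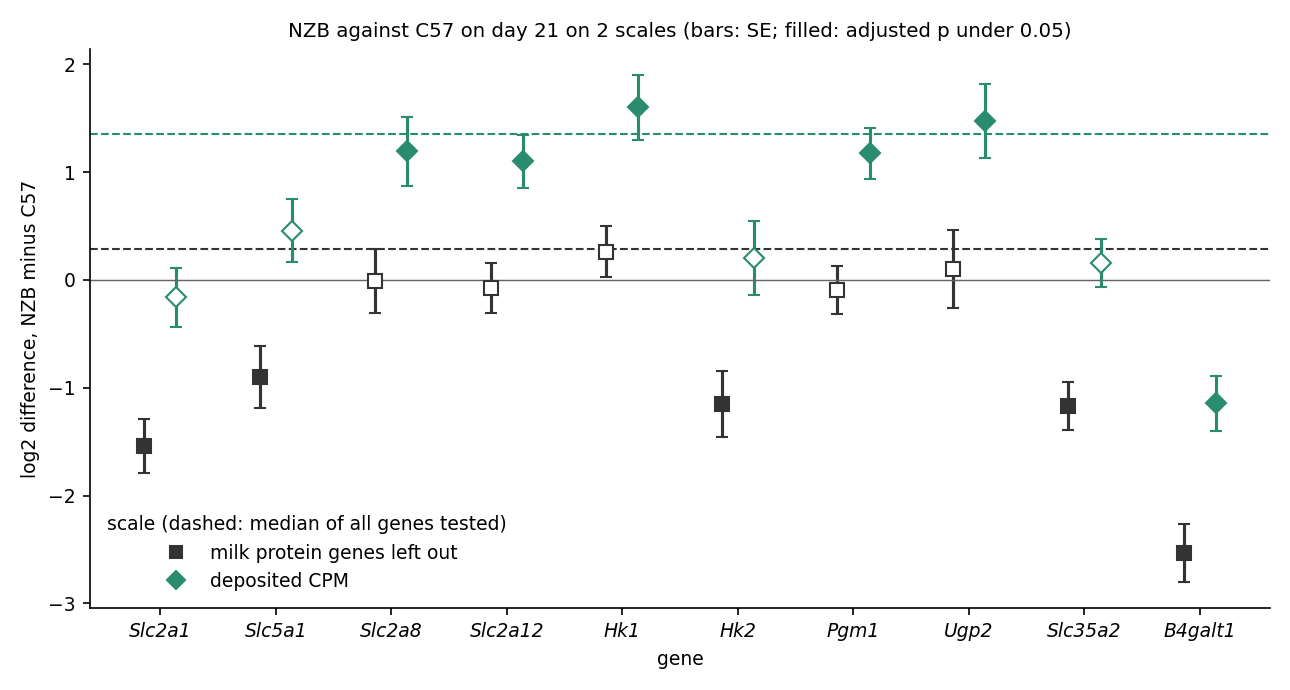
Log2 difference between NZB and C57 on day 21 for each member, with milk protein genes left out (squares) and on the deposited scale (diamonds), SE bars, filled where adjusted p was under 0.05, and the median of all genes on each scale as a dashed line (0.29 and 1.35). B4galt1 lies at -2.53 and -1.14, and Slc2a1, Slc35a2, Hk2 and Slc5a1 are filled only with milk protein genes left out (-1.54, -1.17, -1.15 and -0.90).

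Within NZB, 4 of 10 members were lower on day 21 than on day 14 (B4galt1, Slc2a1, Slc35a2 and Slc5a1), where 5.75% of genes were lower and 15.6% higher. B4galt1 fell by 2.12 on the log2 scale (SE 0.27, adjusted p = 1.4e-05), Slc2a1 by 1.48 (SE 0.25, adjusted p = 2.9e-04), Slc35a2 by 1.27 (SE 0.22, adjusted p = 4.3e-04) and Slc5a1 by 0.93 (SE 0.29, adjusted p = 0.025). With the milk genes kept B4galt1 was lower as well (-0.69), Slc2a1 stood at -0.06, Slc35a2 at 0.10 and Slc5a1 at 0.48, and these last 3 were not called. On that scale 5 members were called higher on day 21, Slc2a8 (1.15), Slc2a12 (1.09), Hk1 (1.51), Pgm1 (1.44) and Ugp2 (1.28), and 1 lower. The split over all genes was 2633 higher and 972 lower, or 13844 and 148 on the deposited scale, where the median of all genes was 1.36. The Slc5a1 call was lost without NZB day 14 mouse 1 or 2 or NZB day 21 mouse 1 or 2 (adjusted p from 0.062 to 0.11). Hk2 had a log2 difference of -0.84 (SE 0.30, adjusted p = 0.053). It passed without NZB day 14 mouse 3, at -1.16 with adjusted p = 0.012, with the mouse number as a replicate block, at adjusted p = 0.038, and by limma voom (adjusted p = 0.037), but turned to 0.55 on the deposited scale (adjusted p = 0.14).

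The change from day 14 to day 21 was tested for a difference between genotypes. The NZB change less the C57 change was -2.10 for B4galt1 (SE 0.38, adjusted p = 0.0027), -1.58 for Slc2a1 (SE 0.35, adjusted p = 0.010) and -1.34 for Slc35a2 (SE 0.32, adjusted p = 0.014) on the log2 scale. These 3 of 10 compare with 2.26% of genes more negative in NZB and 3.77% more positive. Limma voom also called Slc5a1 (-1.34, adjusted p = 0.031). The Slc35a2 call was lost without C57 day 21 mouse 2 (adjusted p = 0.051) or NZB day 14 mouse 2 (adjusted p = 0.058). Counted from non-lactating glands instead, B4galt1, Hk2, Slc2a1 and Slc35a2 differed, 4 of 10 more negative in NZB against 4.07% of genes, and 0 more positive against 12.7%.

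The deposited scale gave the opposite balance in both of these tests. From day 14 to day 21, 0 members were more negative in NZB and 5 more positive there (Slc2a8, Slc2a12, Hk1, Pgm1 and Ugp2, at 1.15 to 1.54), and the split over all genes was 12019 more positive and 85 more negative, or 637 and 382 on the non-milk scale. B4galt1, Slc2a1 and Slc35a2 stood at -0.66, -0.15 and 0.042, and none of these 3 passed. From non-lactating glands, 1 member was more negative on the deposited scale, B4galt1 (-0.99, adjusted p = 0.019). Slc5a1 (1.87), Hk1 (1.79), Pgm1 (1.70), Slc2a12 (1.62), Ugp2 (1.52) and Slc2a8 (1.06) were more positive, where the split over all genes was 10850 and 230, or 2150 and 689 on the non-milk scale. Slc2a1 stood at -0.0042 (adjusted p = 0.99), Hk2 at -0.15 (adjusted p = 0.79) and Slc35a2 at 0.20 (adjusted p = 0.58) there.

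NZB glands of day 21 were above NZB non-lactating glands in 7 members, where 16.6% of genes were higher, and below in 1, where 15% of genes were lower. Of these 7 members 6 had also been called on day 14, with Pgm1 added and Slc35a2 no longer called. On the deposited scale 5 were higher and 1 lower, where 1588 genes were higher and 5130 lower, or 2806 and 2533 on the non-milk scale. Slc5a1 was 21.1-fold higher (log2 4.40, SE 0.29), B4galt1 4.96-fold (log2 2.31, SE 0.27) and Slc2a1 3.08-fold (log2 1.62, SE 0.25), all with no overlap and the same direction on the deposited scale. Slc35a2 did not differ detectably (log2 0.21, SE 0.22, adjusted p = 0.52, and -0.15 on the deposited scale), with overlapping mice. Hk2 was lower than in non-lactating glands (log2 -1.32, SE 0.30, adjusted p = 0.0020), and it was lower on the deposited scale too (-1.70). Slc2a12, Hk1, Ugp2 and Pgm1 were the other 4 higher members. The Pgm1 call (log2 0.63, adjusted p = 0.036) was lost without NZB non-lactating mouse 1 or 3 or NZB day 21 mouse 3, with only the compared groups in the fit (adjusted p = 0.17), with 8 milk genes left out (0.061) and on the deposited scale (log2 0.26, adjusted p = 0.39). The Ugp2 call (log2 1.36) was lost without NZB day 21 mouse 3 (adjusted p = 0.060) and with only the compared groups in the fit (0.076). The Ugp2 difference was 0.99 without the lymphocyte-rich NZB non-lactating mice 2 and 3, which left only mouse 1 in that group. The Hk1 call (log2 0.92, adjusted p = 0.0051) was lost with only the compared groups in the fit (adjusted p = 0.069) and on the deposited scale (log2 0.53, adjusted p = 0.16).

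Ratios between members do not depend on the scaling. The ratio of B4galt1 to Slc2a1 was 6.15 to 8.41 in C57 non-lactating glands and 15.2 to 26.6 over the 9 lactating C57 glands. In NZB it was 4.70 to 9.59 in non-lactating glands, 18.4 to 25.3 on day 8 and 13.4 to 20.7 on day 14. On day 21 in NZB it was 9.26, 10.7 and 12.7. These mice and NZB day 14 mouse 3, at 13.4, lay below all 9 C57 lactating glands. The ratio of Slc5a1 to Slc2a1 went the other way, with 0.608, 0.627 and 0.768 in NZB on day 21 and 0.356, 0.506 and 0.434 in C57. The ratio of Lalba to B4galt1 was 1.58, 0.794 and 0.988 in NZB on day 21 and 0.782, 0.838 and 0.999 in C57, and the genotypes overlapped. On day 14 it was 1.88 in NZB mouse 3, the mouse with low B4galt1, and 0.960 and 0.990 in the other NZB mice. Lalba itself was lower in NZB on day 21 on the deposited scale (700.1, 531 and 565 CPM against 1023, 943 and 1243, log2 -0.84, SE 0.26, adjusted p = 0.0055).

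The cell markers on day 21 were measured in the same glands. Luminal secretory markers other than milk protein genes summed to 2019 to 2647 non-milk CPM in NZB and 1662 to 1944 in C57, with 4 of 7 higher in NZB and 0 lower. White adipocyte markers summed to 1184 to 3890 in NZB and 329 to 725 in C57 (9 of 9 higher), and fibroblast markers to 923 to 2174 in NZB and 494 to 693 in C57 (6 of 6 higher). Myoepithelial markers summed to 995 to 1563 in NZB and 647 to 918 in C57 (2 of 7 higher). Macrophage markers summed to 273 to 481 in NZB and 131 to 160 in C57 (6 of 7 higher). Skeletal muscle markers summed to 238 and 857 in NZB mice 1 and 2 and to 3.75 to 8.40 in the other 4 day 21 glands. Of the 10 members, 8 were also divided by the summed level of Krt8, Krt18 and Epcam, which mark luminal epithelium. This sum was itself higher in NZB on day 21, at 660, 715 and 1018 non-milk CPM against 343, 288 and 441 in C57, which lowers all 8 NZB ratios alike. B4galt1 relative to these 3 was 0.962, 1.14 and 0.758 in NZB on day 21 and 10.03, 16.4 and 10.9 in C57. Slc2a1 was 0.0899, 0.0897 and 0.0819 in NZB and 0.556, 0.623 and 0.532 in C57, and Slc35a2 0.0245, 0.0249 and 0.0125 against 0.0917, 0.151 and 0.077. Slc5a1 was 0.0547, 0.0562 and 0.0629 against 0.198, 0.315 and 0.231. On day 21 all 8 ratios were lower in NZB with no overlap, those of Hk1, Ugp2 and Slc2a12 included, whose own levels were not called different. Krt8, Krt18 and Epcam are part of the 7 luminal secretory markers, whose sums differed less between the genotypes. Ratios to all 7 were not taken, so the lack of overlap is given for the 3-marker denominator only. The Slc2a1 ratio of NZB on day 21 lay within the range of C57 non-lactating glands (0.0746 to 0.0939) and below that of NZB non-lactating glands (0.168 to 2.43). The Slc5a1 ratio lay above the C57 non-lactating range (0.0137 to 0.0226) and within the NZB one (0.0096 to 0.0746). The summed level of Krt8, Krt18 and Epcam in NZB non-lactating glands was 13.7 to 119 non-milk CPM. The ratio of Hk1 was 0.0843 to 0.120 in NZB against 0.168 to 0.193 in C57. The part of the adipocyte, fibroblast, macrophage and muscle markers in the differences of the members was not tested.

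**Figure D4:**
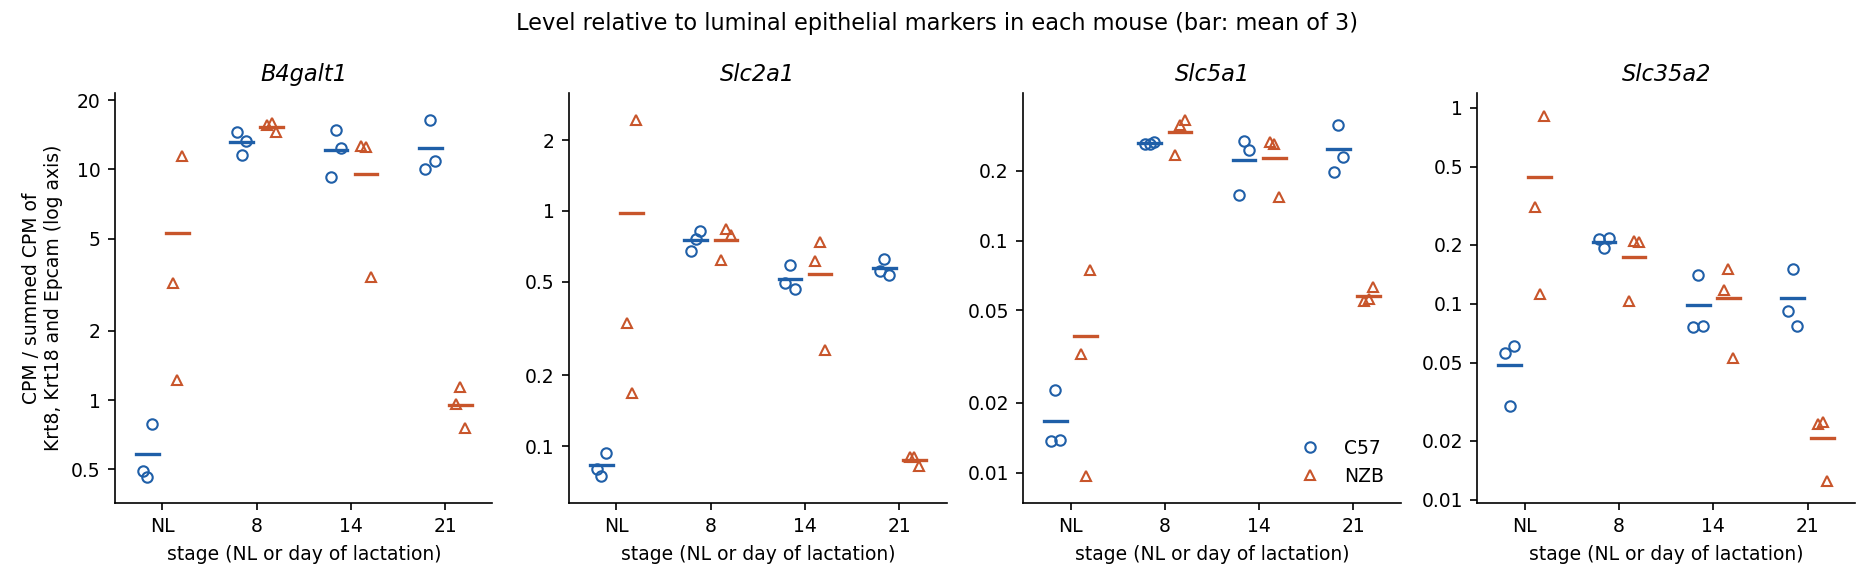
Level of B4galt1, Slc2a1, Slc5a1 and Slc35a2 divided by the summed level of Krt8, Krt18 and Epcam in each mouse (log axis) against stage, with C57 as circles, NZB as triangles and the mean of 3 mice as a bar. On day 21 the NZB mice lie below all C57 mice in each panel, at 0.758 to 1.14 against 10.03 to 16.4 for B4galt1, and the NZB non-lactating mice spread from 1.22 to 11.4 for B4galt1.

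No member was called different between the genotypes in non-lactating glands or on days 8 and 14. In non-lactating glands, fitted on those 6 samples alone, limma called 0 of 10 members, where 0.0258% of genes were higher and 0.0129% lower in NZB, with 1 member at an unadjusted p under 0.05 (Slc5a1), and limma voom called 0. Slc5a1 was at 1.02 to 1.44 non-milk CPM in NZB and 3.07 to 10.6 in C57, groups that did not overlap (log2 -1.40, SE 0.43, adjusted p = 0.33). In the fit of all 24 samples, where all groups share the same spread, this Slc5a1 difference passed, with adjusted p = 0.0054. That fit was not the planned test, for the reason given under the processing. Slc2a12 did not overlap either, at 3.27 to 4.73 in NZB and 5.77 to 7.25 in C57 (log2 -0.51, SE 0.25, adjusted p = 0.50). The summed luminal secretory markers were also lower in the NZB glands, as given above, although 0 of the 7 were called. Their part was not tested. On day 8 limma called 0 of 10, where 0.0296% of genes were higher and 0.00591% lower, with 1 member at an unadjusted p under 0.05 (Slc2a12, log2 0.58) and 0 by limma voom. On day 14 limma and limma voom called 0 of 10, 0 had an unadjusted p under 0.05, and the same percentages of genes were called as on day 8. B4galt1 differed by log2 0.29 on day 8 and -0.43 on day 14 (SE 0.27), and Slc2a1 by 0.05 and 0.04 (SE 0.25).

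Other genes of hexose entry, sugar phosphate, UDP-sugar and galactosyl transfer steps were counted from a list of 42, of which Lalba is a milk protein gene and 39 of the other 41 were tested. On day 8, 8 rose and 16 fell in C57 (median log2 -0.10) and 11 rose and 14 fell in NZB (median -0.09), against 3 and 32 in C57 and 2 and 34 in NZB on the deposited scale. Over all genes 12.8% rose and 30.2% fell in C57, and 14.5% rose and 31.3% fell in NZB. Those with the smallest adjusted p among the risers were Slc2a9, Tmem165 and Slc50a1 in both genotypes. Slc2a9, a urate and hexose transporter, went from a mean of 4.46 to 58.8 non-milk CPM in C57 (log2 3.48, SE 0.21) and from 7.95 to 57.9 in NZB (log2 2.75, SE 0.21). Tmem165, a Golgi manganese and calcium transporter needed for galactosylation, went from 44.5 to 375 in C57 (log2 3.06, SE 0.25) and from 41.7 to 503 in NZB (log2 3.55, SE 0.25). Slc50a1, the sugar transporter SWEET1, rose by log2 2.45 in C57 and 1.98 in NZB. All 3 were positive on the deposited scale as well, with Slc50a1 in NZB at 0.09. Among those that fell were Slc2a4, the insulin-responsive GLUT4 and also a white adipocyte marker (log2 -3.58 in C57 and -3.92 in NZB), Gys1, glycogen synthase (-1.89 and -2.17), Ugdh, UDP-glucose dehydrogenase (-1.89 in C57), and Slc2a5, the fructose transporter GLUT5 (-4.06 in NZB).

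On day 21, 5 of the 39 were lower and 6 higher in NZB than in C57 (median log2 0.16), or 1 and 31 on the deposited scale. Over all genes 5.65% were lower and 18.4% higher on the non-milk scale. Slc50a1 stood at a mean of 13.9 non-milk CPM in NZB and 63.8 in C57 (log2 -2.05, SE 0.27) and Tmem165 at 74.7 against 236 (log2 -1.59, SE 0.25), and both were negative on the deposited scale (-0.69 and -0.21). Ugdh (log2 0.99), Slc5a9, a sodium-linked hexose transporter (2.01), and Slc2a4 (1.46) were higher in NZB. Within NZB from day 14 to day 21, 5 of 39 were lower and 3 higher, where 5.75% of all genes were lower and 15.6% higher, and on the deposited scale 1 was lower and 31 higher. Slc50a1 (log2 -2.28) and Txnip (-1.33), a glucose-responsive inhibitor of glucose uptake, were among those lower, although Txnip stood at 0.10 on the deposited scale. Slc5a9 (log2 2.29), Ugdh (0.58) and Gys1 (0.64) were those higher.

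The genes with the pattern most like that of a member were ranked by Pearson's r over the 8 group means of log2(non-milk CPM + 1) among 9612 genes, as a description. For B4galt1 they were Abcg2 (a transporter that secretes riboflavin into milk, r = 0.999), Slc41a1, Slc2a1, Sema4g and Vmn2r10. For Slc2a1 they were Hoga1, Deb1, Vmn2r-ps21, Vmn2r10 and Fam84b, and for Slc5a1 they were Rnf128, Mfsd6, Liph, Ptpn18 and Rhpn2. Values of r were 0.997 to 0.999 for all 15, and the group means share libraries and scaling. The Vmn2r names belong to a large family of near-identical receptor genes, whose counts are uncertain.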

How the data were processed

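Per the labels, polyA RNA was extracted from snap-frozen glands. The authors deposited log10 values of CPM plus 1 (the base read from the values, since every column sums to 1000000 CPM once undone) for 32544 symbols in 48 columns, 2 for each of 24 samples. Per the submitters' processing notes the build was GRCm38 (mm10). For the aligner, the counter and the use of strand: not given in the sources used here.

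The pair of columns of a sample was averaged in CPM and counted as 1 replicate. Of the lower values 100% were whole reads within a tolerance of 0.05, and the higher values were rounded without this check. The recovered reads gave the depth, and for 23 samples the columns differed in reads by at most 0.45%. The 20 milk protein genes were removed and the rest rescaled to 1000000. The design had assumed log2 CPM. The log10 values were put on the log2(CPM + 1) scale, with no change of test. The 16917 genes above 1 CPM in 3 or more samples entered a test with limma 3.58.1 (lmFit, contrasts.fit, eBayes with a trend, 2-sided, R 4.3.3) on 8 group means with 16 residual degrees of freedom. For the genotype comparison in non-lactating glands only those 6 samples were fitted (15512 genes, 4 degrees of freedom). Earlier work on these data had found a wider spread in NZB non-lactating glands. It had also found many false calls in simulated data when all groups shared the same spread. The other comparisons with NZB non-lactating glands still use the shared spread. Benjamini-Hochberg adjustment was over all genes in each of 20 comparisons, threshold 0.05. The percentages of genes called are from this limma fit. None is given for limma voom or for unadjusted p, so member counts by those have no background beside them. An SE pools the spread of all groups in a fit. Fold changes are on the log2(CPM + 1) scale, which understates those of low genes. The 3 mice of a group are separate samples, and nothing states how litters or days were shared.

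The members and lists were chosen with earlier results of these data known. The rule named all 10 members, Lalba, Pgm2, up to 3 listed pathway genes with the smallest adjusted p in each direction per comparison, and 5 genes of the most similar pattern (mean non-milk CPM of at least 10) for each of 3 members. A gene that the rule would name is not reported here. Mouse numbers of the titles were not used to pair samples, since in 0 of 28 group pairs did every same-numbered pair correlate above 0.1. This rule needs every number to pass and cannot exclude partial pairing. Mice 1 and 2 of C57 days 14 and 21 correlated at 0.61 and 0.58, so these 2 groups may not be independent. The scripts were tested on simulated data. Alternatives were the deposited scale, a short list of 8 milk genes, a pseudocount of 0.1, no filter, limma voom on recovered reads, other samples in the fit, the first column alone, a replicate block and each mouse left out. Leaving out NZB non-lactating mice 2 and 3 was added after seeing the data. It left only mouse 1 in that group, so effect sizes alone are given for it. A planned count-model alternative (quasi-likelihood) was not run. Symbols that had become dates (27) stayed in totals and were not tested. Figures used Python 3.11.15 with matplotlib 3.10.9.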

Additional observations from a re-analysis of the deposited data

Results flagged for a closer look

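The change of 4 members between stages differed between the genotypes by the test of the difference itself (limma, log2 on the non-milk scale, NZB less C57). From non-lactating glands to day 21 the difference was -2.39 for B4galt1 (SE 0.38, adjusted p = 1.9e-04), -1.52 for Hk2 (SE 0.43, adjusted p = 0.018), -1.40 for Slc2a1 (SE 0.35, adjusted p = 0.0084) and -1.14 for Slc35a2 (SE 0.32, adjusted p = 0.016). On the deposited scale these were -0.99 for B4galt1 (adjusted p = 0.019), -0.15 for Hk2 (0.79), -0.0042 for Slc2a1 (0.99) and 0.20 for Slc35a2 (0.58). From day 14 to day 21 it was -2.10 for B4galt1, -1.58 for Slc2a1 and -1.34 for Slc35a2, or -0.66, -0.15 and 0.042 on the deposited scale, where none of the 3 passed. Without the lymphocyte-rich NZB non-lactating mice 2 and 3, which left only mouse 1 in that group, the Slc2a1 difference from non-lactating glands was -0.89. Without NZB day 21 mouse 2 that of Hk2 was -1.29 (adjusted p = 0.056), and without C57 day 21 mouse 2 that of Slc35a2 was -1.005 (adjusted p = 0.051).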

How the results depend on the processing

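With the milk protein genes kept, 3 members rose on day 8 in NZB in place of 7, 1 was lower in NZB than in C57 on day 21 in place of 5, and 1 was lower on day 21 than on day 14 in NZB in place of 4. The C57 day 8 count was 3 in place of 4. On that scale 58 of 190 member differences changed sign, 10 of them called on neither scale. The other 48 follow. Against non-lactating C57 glands they were, on day 8, Slc2a12 -1.16, Hk1 -1.83, Hk2 -1.49, Pgm1 -1.74 and Ugp2 -1.35. On day 14 they were Slc2a8 -1.28, Slc2a12 -0.59, Hk1 -1.23, Hk2 -1.59, Pgm1 -1.55, Ugp2 -0.52 and Slc35a2 -0.41, and on day 21 Slc2a8 -1.34, Slc2a12 -0.66, Hk1 -1.26, Hk2 -1.55, Pgm1 -1.44, Ugp2 -0.55 and Slc35a2 -0.35. In NZB they were, on day 8, Slc2a12 -0.15, Hk1 -1.59, Hk2 -1.84, Pgm1 -1.02, Ugp2 -0.58 and Slc35a2 -0.17, and on day 14 Slc2a8 -1.42, Slc2a12 -0.12, Hk1 -0.98, Pgm1 -1.18, Ugp2 -0.31 and Slc35a2 -0.25. Between days 14 and 21 in NZB they were Slc5a1 0.48, Slc2a8 1.15, Slc2a12 1.09, Ugp2 1.28 and Slc35a2 0.10. Between genotypes on day 21 they were Slc5a1 0.46, Slc2a8 1.20, Slc2a12 1.10, Hk2 0.20, Pgm1 1.18 and Slc35a2 0.16. For the genotype difference in the change to day 21 they were Slc2a8 1.06 and Slc35a2 0.20 from non-lactating glands, and Slc2a8 1.21, Slc2a12 1.15, Ugp2 1.32 and Slc35a2 0.042 from day 14. Fitting all 24 samples gave 1 member in place of 0 for the non-lactating genotype comparison. Leaving out each mouse gave 4 to 4 members on day 8 in C57 and 6 to 7 on day 8 in NZB. It gave 3 to 5 lower in NZB than in C57 on day 21 (3 without NZB day 21 mouse 2). From day 14 to day 21 in NZB 3 to 5 were lower, and between non-lactating glands 0 to 0 differed. With the replicate block the counts were 4, 7, 5, 5 and 0 in the order above, and the block changed the call of 1 member, Hk2 from day 14 to day 21 in NZB (-0.84, adjusted p = 0.038). The first column alone and no filter changed 0 of 190 member calls. The quasi-likelihood alternative was not run. Depth limits the precision of low values, such as those of Slc5a1 in NZB non-lactating glands (1.02 to 1.44 non-milk CPM).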
